A study of Mus musculus with 17 samples.

Results

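The enzymes described here are the cytochrome P450s and conjugating enzymes that carried a named probe on a mouse cDNA array, measured in liver of Afp knockout mice. The members are the array's gene symbols that start with Cyp1, Cyp2, Cyp3a, Ugt1, Ugt2, Gst, Sult, Fmo or Ces followed by a family number or letter, with Por added, and 46 genes on 54 probes met this rule among 9030 named genes. They comprised 11 Cyp2 genes, 2 Cyp3a genes, 5 steroid and retinoid P450s that share the first characters (Cyp11a1, Cyp17a1, Cyp21a1, Cyp26b1 and Cyp27a1), 2 Ugt, 16 Gst, 3 Sult, 1 Fmo and 6 Ces genes. No probe carried the symbol of Por or of a Cyp1a or Cyp1b gene, so these were not analysed here. The adult group held 6 male Afp knockout mice aged 17 weeks, each set against 1 pool of liver RNA from 6 wild-type males of the same age. Of these 6 animals, 5 were hybridised in both dye orientations and animal 5 with the mutant in Cy5 alone, giving 11 arrays. The fetal group held 6 knockout embryos on 1 array each, embryos 1 to 3 male and 4 to 6 female, and every embryo was labelled with Cy5. The fetal pool named 4 wild-type animals, although the labelling protocol speaks of 6, and it was called male on 2 arrays and female on 4. The age label of the embryos, day 7.5, is kept as a label for tissue called fetal liver. No treatment was given in the labels, strain was not stated, and no wild-type animal was hybridised on its own, so the spread between wild-type animals enters no test.

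Cytochrome P450s are haem enzymes, mostly of the endoplasmic reticulum, that oxidise drugs, steroids, retinoids and fatty acids. Conjugating enzymes then attach glucuronic acid (Ugt), glutathione (Gst) or sulfate (Sult) to the products, flavin monooxygenases (Fmo) oxidise nitrogen and sulfur groups, and carboxylesterases (Ces) cleave esters and amides. In the liver these enzymes sit mainly in hepatocytes, where the nuclear receptors CAR and PXR, the aryl hydrocarbon receptor, NRF2 and hepatocyte nuclear factors control many of them. Several are set by age and, in adult mice, by sex through the pattern of growth hormone release. Alpha-fetoprotein, the product of Afp, is the main serum protein of the fetus and is made by fetal liver and yolk sac.

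All values are log2 ratios of mutant over wild-type pool as the authors deposited them, and a value below 0 means less signal from the mutant. The arrays carried 20078 to 20697 values each, and array medians lay between -0.11 and 0.09 in the adults and between -0.02 and 0.03 in the embryos. The ratios give no level in either channel, so the tissue label could not be checked from marker levels. The targeted gene, Afp, averaged -0.03 in the adults, where it left the genotype unchecked, and -8.40 in the embryos. The labels do not state in which direction the ratios of the Cy3-labelled mutants run. These arrays were used as deposited, the likely direction. For part of the members whose sign changed when these arrays were turned, the turned value stands beside the gene. Turned calls stand there or in the account of the dye orientations. The adult means of Cyp2f2, Gsta3, Cyp2d22, Ces2a, Fmo1, Cyp26b1 and Gsto2 also changed sign when these arrays were turned, without a value printed. The fetal values of a probe stand 11 rows further down the table than its name, the offset at which the fetal mean followed the adult dye effect best in 20 of 20 blocks of 1000 probes. Beyond probe 20000 this offset was not settled. Similar cDNAs within the Cyp2d, Cyp3a, Gstm and Ces1 families and the shared exons of the Ugt1a genes can cross-hybridise, which was not tested. In liver RNA as a whole, fewer hepatocytes and less RNA of a gene per hepatocyte cannot be told apart.

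Promoter sequences are shown for 4 members because the results return to them: Cyp3a11 and Cyp2a12, with the lowest adult means over both dyes, Gstp1, below 0 in every adult, and Gsta3, above 0 in every embryo. RefSeq (GRCm38.p6) held promoters for 37 of the 46 members. The 250 bases before each start were searched on both strands for AGGTCA (nuclear receptor half-site), CAAAGTCCA (a hepatocyte nuclear factor 4 type site), TGAGTCA (an AP-1 type site), TGACNNNGC (the core of the antioxidant response element) and GTTAAT (a hepatocyte nuclear factor 1 half-site). Capitals mark the matches.
Cyp3a11, chr5:145879855-145880104, minus strand: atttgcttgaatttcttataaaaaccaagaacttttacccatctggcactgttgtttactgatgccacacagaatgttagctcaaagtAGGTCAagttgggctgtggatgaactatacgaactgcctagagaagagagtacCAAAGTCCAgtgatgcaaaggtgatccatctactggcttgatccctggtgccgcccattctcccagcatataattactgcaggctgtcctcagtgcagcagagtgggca
Cyp2a12, chr7:27028840-27029089, plus strand: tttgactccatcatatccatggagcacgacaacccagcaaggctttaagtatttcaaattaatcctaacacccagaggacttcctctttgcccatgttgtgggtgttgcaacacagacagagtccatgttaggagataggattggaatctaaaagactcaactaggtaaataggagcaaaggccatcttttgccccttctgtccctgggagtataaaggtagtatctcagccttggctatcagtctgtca
Gstp1, chr19:4037913-4038162, minus strand: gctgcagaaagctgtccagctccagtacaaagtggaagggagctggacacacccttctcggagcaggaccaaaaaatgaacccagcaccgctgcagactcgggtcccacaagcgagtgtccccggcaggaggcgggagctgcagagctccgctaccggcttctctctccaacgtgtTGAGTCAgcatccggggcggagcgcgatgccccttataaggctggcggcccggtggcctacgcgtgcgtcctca
Gsta3, chr1:21240335-21240584, plus strand: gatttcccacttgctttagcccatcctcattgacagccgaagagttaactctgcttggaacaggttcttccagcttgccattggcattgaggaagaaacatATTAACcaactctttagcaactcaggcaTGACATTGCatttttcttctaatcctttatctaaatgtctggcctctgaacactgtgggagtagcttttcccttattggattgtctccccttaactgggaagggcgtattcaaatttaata
Cyp3a11 held AGGTCA, whose first base stood 162 bases before the start, and CAAAGTCCA at 109 bases. Gstp1 held TGAGTCA at 74 bases, and Gsta3 held the antioxidant core at 121 bases and the reverse of GTTAAT at 149 bases. None of the 5 motifs was found in the window of Cyp2a12. No match in these windows shared a base with another. Over all members with a promoter, CAAAGTCCA was found in 2 of 37 (5.41%, Cyp3a11 and Cyp2c70) against 0.451% of 27025 gene promoters, and AGGTCA in 7 (18.9%) against 15.8%. GTTAAT was found in 5 members (13.5%) against 7.49%, TGAGTCA in 4 (10.8%) against 5.16%, and the antioxidant core in 2 (5.41%) against 11.5%. A match is a stretch of letters and no measured binding site.

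In adult mutant liver most of the enzymes lay below the wild-type pool, but none passed the test. Of the 46 members, 35 had a mean below 0 (76.1%), against 48.1% of all 17039 features tested (a feature is a gene, averaged over its probes, or an unnamed probe), and their median was -0.20 against 0.008. By limma's test of the mean ratio against 0, with Benjamini-Hochberg adjustment over all features, 0 members and 0 of 17039 features (0%) passed at 0.05. The smallest adjusted p of a member was 0.639. At an unadjusted p under 0.05, 11 members were counted, all lower, where 4.35% of all features were lower at that level and 7.71% were counted in either direction. A mean below -0.3 was found in 19 members, against 9.34% of features. The low values came from some animals more than others. The median over the members was 0.02, -0.01, -0.42, -0.56, -0.13 and -0.30 in animals 1 to 6, while the median over all features stayed between -0.06 and 0.03. Of the 46 members, 39 lay below 0 in animal 3 and 38 in animal 4, but 21 in animal 1.

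**Figure D1:**
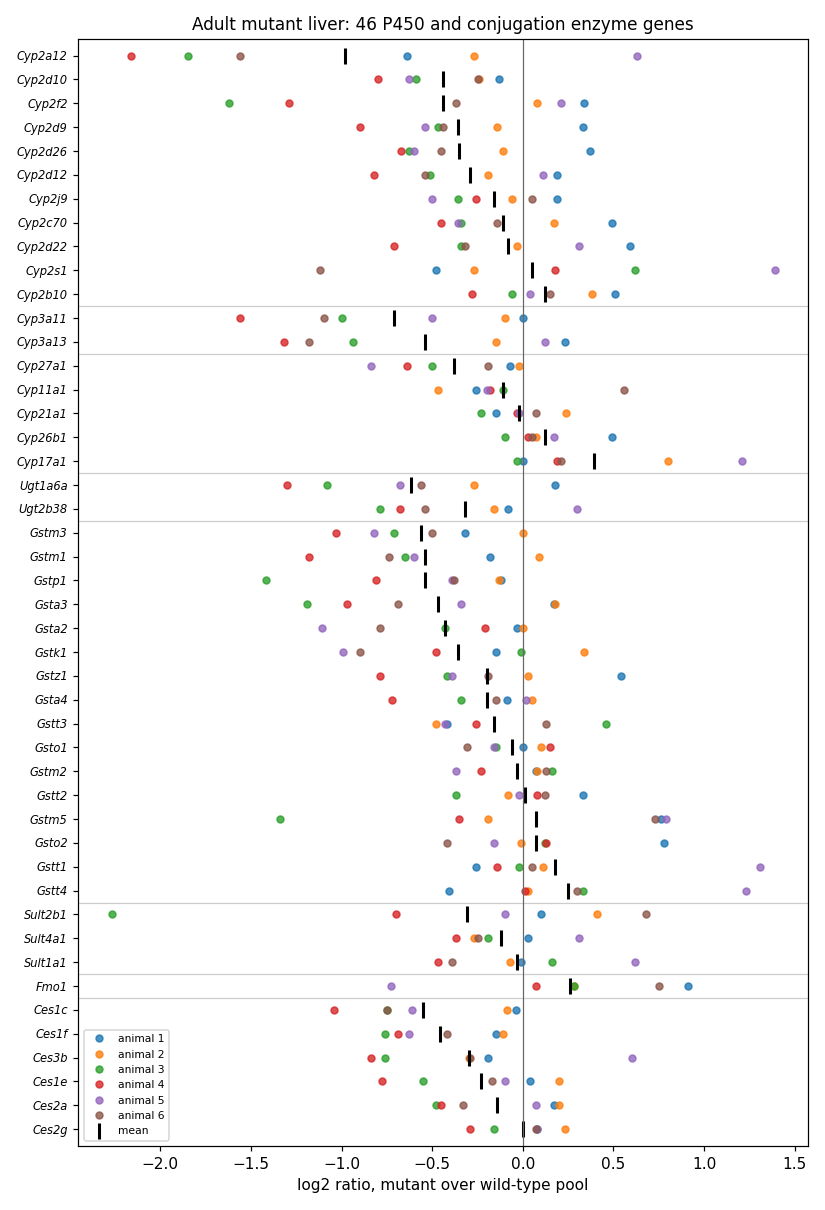
Log2 ratio of mutant over wild-type pool (horizontal axis) for the 46 P450 and conjugation enzyme genes (rows, by family, separated by grey lines) in the 6 adult mutants. Points are animals, averaged over their arrays, and black bars are means. Animals 3, 4 and 6 form most of the low values in these averages, in which animal 5 has no Cy3 array. Of the 46 means, 35 lie below 0.

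Among the Cyp2 genes, the family that oxidises most drugs, 9 of 11 adult means lay below 0, with a median of -0.29. Cyp2a12, a P450 of the 2A family, had the lowest mean of all members over both dyes as deposited. It read -0.64, -0.27, -1.85, -2.16, 0.63 and -1.56 in animals 1 to 6, a mean of -0.98 ± 1.07 (SD, n = 6, as for all adult means below), and its animals lay on both sides of 0. In the Cy5 arrays alone it stood at -0.48, where Cyp3a11 was lowest at -0.92, and with the Cy3 arrays turned in sign it stood at 0.60 (limma adjusted p = 0.00792). Cyp2d10, of the family related to human CYP2D6, was below 0 in every animal, at -0.13, -0.24, -0.59, -0.80, -0.63 and -0.25 and a mean of -0.44 ± 0.27. Its relatives Cyp2d9, Cyp2d26, Cyp2d12 and Cyp2d22 averaged -0.36, -0.35, -0.29 and -0.08, with animal 1 above 0 for each of them. Cyp2f2, a P450 of the 2F family, spread widely, at 0.34, 0.08, -1.62, -1.29, 0.21 and -0.37, with a mean of -0.44 ± 0.83. Cyp2b10, the classical gene induced through CAR, had the highest mean of the family, at 0.51, 0.38, -0.06, -0.28, 0.04 and 0.15 and a mean of 0.12 ± 0.29. Its animals lay on both sides of 0. The remaining Cyp2j9, Cyp2c70, which hydroxylates bile acids in mice, and Cyp2s1 averaged -0.16, -0.11 and 0.05.

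Both Cyp3a genes had an adult mean below 0 over both dyes as deposited. Cyp3a11, the main mouse counterpart of human CYP3A4 and a target of PXR, read 0.00, -0.10, -1.0, -1.56, -0.50 and -1.10 in animals 1 to 6, with a mean of -0.71 ± 0.61. Cyp3a13 read 0.23, -0.15, -0.94, -1.32, 0.12 and -1.18, with a mean of -0.54 ± 0.69, which became 0.50 with the Cy3 arrays turned in sign (limma adjusted p = 0.0419). In the Cy5 arrays alone Cyp3a13 averaged -0.06, with 3 of 6 animals below 0. In both genes animals 3, 4 and 6 stood apart from animals 1 and 2. The 5 steroid and retinoid P450s had a median of -0.02. Cyp27a1, the mitochondrial sterol 27-hydroxylase of bile acid synthesis, was below 0 in every animal, at -0.07, -0.02, -0.50, -0.64, -0.84 and -0.19 and a mean of -0.38 ± 0.33. Cyp17a1, the steroid 17-hydroxylase and lyase, had the highest mean of all members, 0.39 ± 0.50, from 0.00, 0.80, -0.03, 0.19, 1.21 and 0.21. Its value rested on animals 2 and 5. Cyp11a1, which cleaves the cholesterol side chain, Cyp21a1, the steroid 21-hydroxylase, and Cyp26b1, which degrades retinoic acid, averaged -0.11, -0.02 and 0.12.

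Of the glucuronosyltransferases, Ugt1a6a, which conjugates planar phenols, read 0.18, -0.27, -1.08, -1.30, -0.68 and -0.56, with a mean of -0.62 ± 0.54, and was below 0 in 5 of 6 animals. Ugt2b38 read -0.08, -0.16, -0.79, -0.68, 0.30 and -0.54, with a mean of -0.32 ± 0.42, against 0.32 in the Cy5 arrays alone and 0.70 with the Cy3 arrays turned in sign (limma adjusted p = 0.0264). The sulfotransferases were close to the pool or scattered. Sult1a1, which sulfates phenols, read -0.01, -0.07, 0.16, -0.47, 0.62 and -0.39, with a mean of -0.03 ± 0.40, and stood at 0.70 with the Cy3 arrays turned in sign (limma adjusted p = 0.00567). Sult2b1, which sulfates sterols, had the lowest mean of the family, -0.31 ± 1.07, set by a value of -2.27 in animal 3 beside 0.10, 0.41, -0.70, -0.10 and 0.68 in animals 1, 2, 4, 5 and 6. Without animal 3 its mean was 0.08. Sult4a1, a sulfotransferase best known from brain, averaged -0.12 ± 0.25, and 0.33 with the Cy3 arrays turned. Fmo1, the only flavin monooxygenase with a probe, was above 0 in 5 of 6 animals, at 0.91, 0.28, 0.28, 0.07, -0.73 and 0.75 and a mean of 0.26 ± 0.58. Animal 5 was the exception.

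Of the 16 glutathione transferases, 11 had an adult mean below 0, with a median of -0.18. The 5 lowest means belonged to the mu, pi and alpha classes, while the theta and omega members lay between -0.16 and 0.25. Gstm3, of the mu class, read -0.32, 0.00, -0.71, -1.03, -0.82 and -0.50, a mean of -0.56 ± 0.37 that was the lowest of the family. Animal 2 was only just below 0, as the average of -0.39 in Cy5 and 0.39 in Cy3. Gstp1, of the pi class and higher in male than in female mouse liver, was below 0 in every animal, at -0.12, -0.13, -1.42, -0.81, -0.39 and -0.38 and a mean of -0.54 ± 0.50. Gstm1, the major mu transferase of mouse liver, averaged -0.54 ± 0.45, and Gsta3, an abundant alpha transferase, -0.47 ± 0.58. Gsta2, an alpha transferase induced through NRF2, read -0.03, 0.00, -0.43, -0.21, -1.11 and -0.79, with a mean of -0.43 ± 0.44, and animals 1 and 2 were at the level of the pool. Gstk1, the kappa transferase of mitochondria and peroxisomes, averaged -0.36 ± 0.52. Gstt4 had the highest mean of the family, 0.25 ± 0.55, from -0.41, 0.03, 0.33, 0.01, 1.23 and 0.30, and Gstt1, of the same theta class, followed at 0.18 ± 0.57, with 1.31 in animal 5. The other theta, omega, zeta, alpha and mu members had means between -0.20 and 0.07.

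Among the carboxylesterases, 5 of 6 means lay below 0. Ces1c, a serum esterase secreted by mouse liver, was below 0 in every animal, at -0.04, -0.09, -0.75, -1.04, -0.61 and -0.75 and a mean of -0.55 ± 0.40. Ces1f, a liver member of the same gene cluster, was so too, at -0.15, -0.11, -0.76, -0.69, -0.63 and -0.42 and a mean of -0.46 ± 0.28. Both genes had their values nearest 0 in animals 1 and 2. Ces1e, of the same cluster, read 0.04, 0.20, -0.55, -0.78, -0.10 and -0.17, with a mean of -0.23 ± 0.37, and stood at 0.12 with the Cy3 arrays turned. Ces2g had the highest mean, 0.00 ± 0.19, from 0.08, 0.23, -0.16, -0.29, 0.08 and 0.07. Ces3b, a triglyceride hydrolase of the liver, and Ces2a averaged -0.30 and -0.14. Ces3b stood at 0.15 in the Cy5 arrays alone and at 0.55 with the Cy3 arrays turned in sign (limma adjusted p = 0.00718). Over all families, 6 members were below 0 in every animal (Cyp2d10, Cyp27a1, Gstm3, Gstp1, Ces1c and Ces1f), where 2.9% of all features were. This holds for the average of an animal's arrays, and none of the 6 was below 0 on every single array. In the Cy5 array of animal 1, Cyp2d10 stood at 0.17, Cyp27a1 at 0.09, Gstp1 at 0.14 and Ces1c at 0.02. In the Cy3 array of animal 2, Gstm3 stood at 0.39 and Ces1f at 0.44. None was above 0 in every animal, against 3.43% of features.

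The dye orientation bore on part of these values. Over the 5 animals with both orientations, 24 members (52.2%) lay below 0 in the mean of each orientation, 4 above 0 in each and 18 had opposite signs, while 14.5% of 17051 features lay below 0 in both and 16.5% above. Cyp3a11 stood at -1.0 with the mutant in Cy5 and -0.50 with the mutant in Cy3, Gstm1 at -0.71 and -0.35, Ugt1a6a at -0.69 and -0.52, Ces1c at -0.68 and -0.38, and Gstp1 at -0.63 and -0.51. These 5 genes were thus below 0 in both orientations. The dye profile, the difference between the orientations divided by 2, was above 0.5 in 10 members (Ces3b, Cyp17a1, Cyp2a12, Cyp2s1, Cyp3a13, Gstm5, Gstt1, Gstt4, Sult1a1 and Ugt2b38) and below -0.5 in 0. The share of all features beyond these bounds is not given, so the counts are not read as particular to the members. All 10 members were above 0 in animal 5, the animal without a Cy3 array, whereas 27 of the other 36 members were below 0 there. Cyp17a1 stood at 1.0 in Cy5 and -0.53 in Cy3, and Cyp2s1 at 0.94 and -1.37, so their adult means depend on the dye. Of the other 36 members, 30 had an adult mean below 0.

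**Figure D2:**
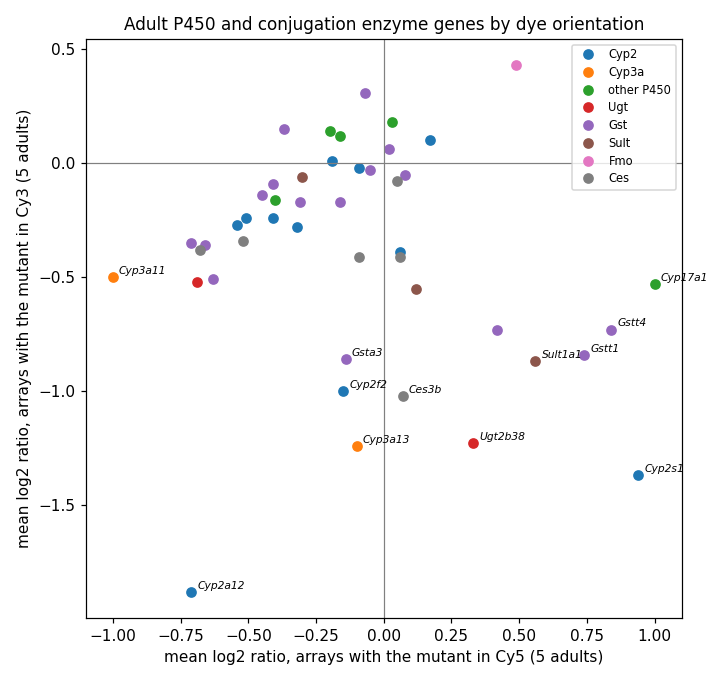
Mean log2 ratio of mutant over pool in the 5 adults measured in both orientations, with the mutant in Cy5 (horizontal axis) and in Cy3 (vertical axis), both as deposited. Each point is a gene, coloured by family. The lower left part holds 24 of the 46 genes, and the lower right holds those with a large dye profile, such as Cyp17a1 and Cyp2s1.

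If the sign of the Cy3 arrays is turned, the average becomes close to the dye profile. In that setting 27 members lay below 0 and their median was -0.08, while 1760 features and 10 members passed. Those 10, all higher, were the 10 members with a dye profile above 0.5, led by Cyp2s1 at 1.20 (limma adjusted p = 0.0065). The Cy5 arrays alone do not depend on this choice. They gave 30 members below 0, a median of -0.14 and 1106 passing features, of which 6 were members: Gstm3 fell by 0.69 on the log2 scale (adjusted p = 0.0337), and Cyp17a1, Cyp2s1, Gstt1, Gstt4 and Sult1a1 were higher by 0.57 to 1.03. These 5 all have a dye profile above 0.5. The Cy3 arrays as deposited gave 36 members below 0 and 699 passing features, of which 6 were members, all lower, among them Cyp2a12 at -1.88. The main setting tested 17039 features and 46 members. The share of all features that passed is not given for these settings, so their member counts are not read as particular to the enzymes.

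Genes that work with these enzymes were set beside them. Of 43 measured genes for cofactors and other oxidising or conjugating enzymes, 35 had an adult mean below 0, with a median of -0.21 and 0 passing. Ephx2, the soluble epoxide hydrolase, averaged -0.36 ± 0.23 and Pon1, the paraoxonase of serum lipoproteins, -0.58 ± 0.43, each below 0 in 6 of 6 animals. Alas1, the rate-limiting enzyme of haem synthesis, averaged -0.39 ± 0.48. The 23 regulators lay around the pool over both dyes, with 10 below 0 and a median of 0.02. This list changed side with the dye. Its median was 0.15 in the Cy5 arrays, with 8 below 0, and -0.15 in the Cy3 arrays, with 17 below 0. The receptor genes Nr1i2 (PXR) and Nr1i3 (CAR) averaged 0.03 ± 0.22 and 0.09 ± 0.18, and Nfe2l2 (NRF2) 0.14 ± 0.54. Hnf4a, a hepatocyte nuclear factor, and Pgrmc1, a membrane protein that binds P450s, were below 0 in 6 of 6 animals, at -0.29 ± 0.13 and -0.59 ± 0.39. The 10 transporters of drugs and conjugates had 5 means below 0 and a median of -0.01 (-0.19 in the Cy5 arrays and 0.07 in the Cy3 arrays). Of the 9 P450s outside the rule, 6 lay below 0 (median -0.06), among them Cyp7b1, an oxysterol 7-hydroxylase, at -0.41 ± 0.33 and below 0 in every animal. Within the members, 7 of 9 genes listed as CAR or PXR targets lay below 0 (median -0.43), as did 9 of 10 listed as NRF2 or aryl hydrocarbon receptor targets (median -0.45). Of all members 76.1% lay below 0, and of all features 48.1%. Gsta2, Gstm1, Gstm2 and Gstm3 stand in both lists, so the lists are not separate observations. In the Cy5 arrays alone 6 of the 9 CAR or PXR targets lay below 0, with a median of -0.06, and 9 of the 10 NRF2 or aryl hydrocarbon receptor targets did, with a median of -0.45. The 5 members known as male-biased in adult mouse liver (Cyp2d9, Cyp2d10, Cyp2f2, Gstp1 and Ugt2b38) all lay below 0, with a median of -0.44, and 2 of 5 female-biased ones did, with a median of 0.12. Of the 5 male-biased genes, 4 were below 0 in the Cy5 arrays alone, where their median was -0.43. The female-biased list changed side with the dye, with a median of 0.28 in the Cy5 arrays and -0.14 in the Cy3 arrays.

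Hepatocyte markers moved with the enzymes. Of 14 measured markers, among them Alb, Ttr and Tat, 13 had an adult mean below 0, with a median of -0.45. Their medians were 0.24, -0.07, -0.78, -0.75, -0.29 and -0.76 in animals 1 to 6. With the arrays of an animal averaged, animals 3, 4 and 6 were thus lowest in this list, as they were in the enzymes. The enzyme medians in the same animals are those given above, and 27 members were below 0 in animals 3, 4 and 6 together, against 16.5% of features. These are the animals with the lowest enzyme medians in these averages, so the excess is in part set by their choice. Animal 5 has no Cy3 array, which bears on this order. In the Cy5 arrays, which all animals have, the enzyme medians were 0.14, 0.17, -0.43, -0.42, -0.13 and -0.12 in animals 1 to 6. Animal 6 was thus not set apart from animal 5 there. The marker medians in the Cy5 arrays were 0.56, 0.06, -0.76, -0.50, -0.29 and -0.59. Other liver cell types showed smaller medians, at 0.07 for 8 cholangiocyte markers, 0.02 for 7 macrophage markers, -0.02 for 7 stellate and fibroblast markers and -0.04 for 8 erythroid markers, with -0.35 for 6 endothelial markers. The part of hepatocyte content, RNA quality or handling of single animals in the enzyme values was not tested.

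**Figure D3:**
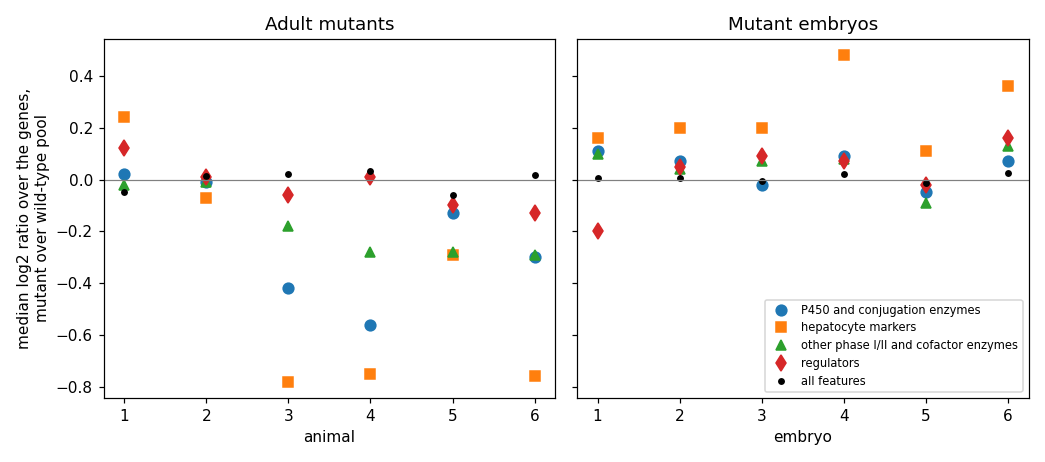
Median log2 ratio of mutant over pool (vertical axis) over the P450 and conjugation enzymes, hepatocyte markers, other phase I and II and cofactor enzymes, regulators and all features, for each of the 6 adult mutants (left) and 6 mutant embryos (right). In adults 3, 4 and 6 the enzymes (-0.42, -0.56 and -0.30) and the hepatocyte markers (-0.78, -0.75 and -0.76) lie below all features. Adult 5 has no Cy3 array, and in the Cy5 arrays alone the enzyme medians of adults 5 and 6 were -0.13 and -0.12. In the embryos the enzymes stay within -0.05 and 0.11.

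In mutant embryos the enzymes showed no shared shift. Of 44 members tested, 22 had a mean below 0 and 22 above, with a median of 0.00, against 49% of all 17242 features below 0 and a median of 0.005. None passed limma's test, while 26 features did (0.151%), and the smallest adjusted p of a member was 0.0525. At an unadjusted p under 0.05, 11 members were counted, 6 higher and 5 lower, where 20.8% of all features were counted, 10.9% higher and 9.88% lower. The median over the members was 0.11, 0.07, -0.02, 0.09, -0.05 and 0.07 in embryos 1 to 6. Both members left untested were Sult1a1, with a value in 3 embryos, and Cyp3a11, whose probe lies in the stretch with no settled offset. Read 11 rows down, Cyp3a11 averaged 1.11 ± 0.73, and read 12 rows down 0.41 ± 0.28 (SD, n = 6), so its fetal value is not known. All fetal arrays had the mutant in Cy5, so mutant and dye cannot be told apart, and the adult dye profile is given below where it bears on a gene.

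**Figure D4:**
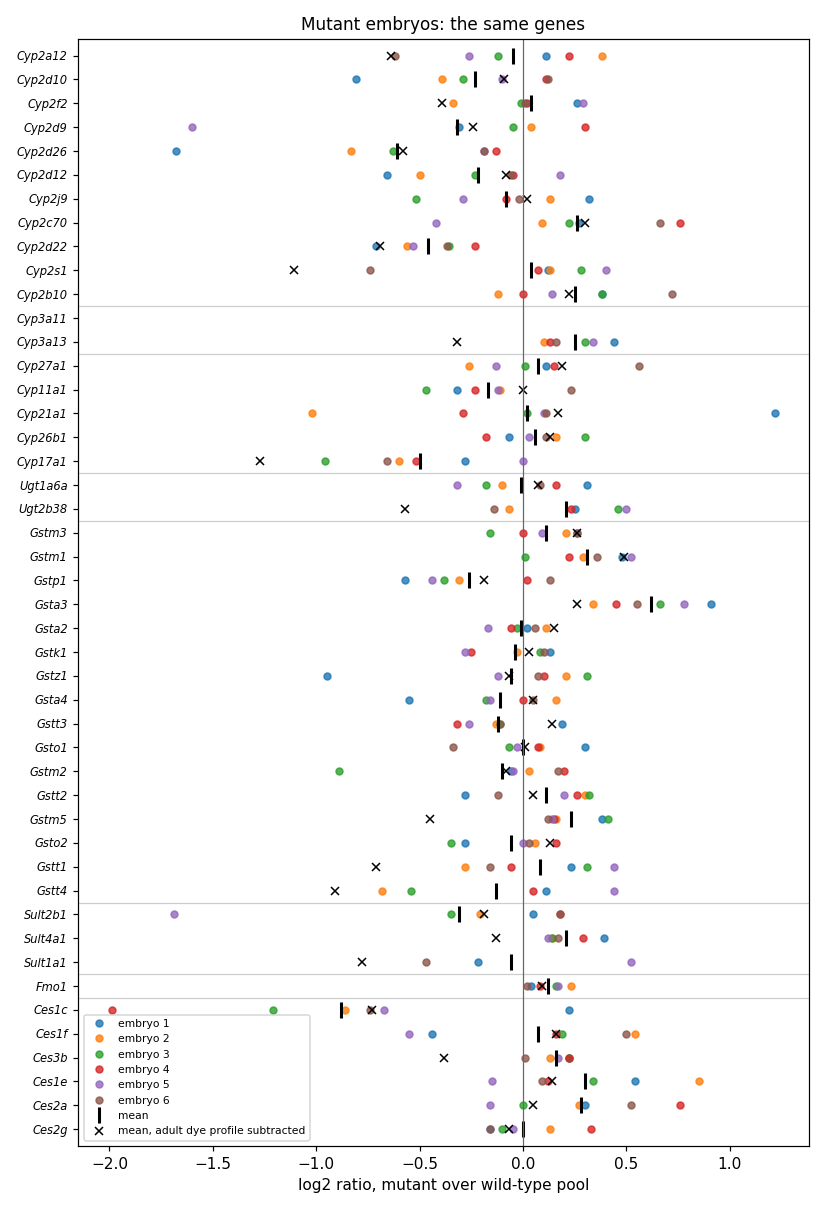
Log2 ratio of mutant over wild-type pool (horizontal axis) for the same genes, in the same order, in 6 mutant embryos. Points are embryos, black bars are means, and crosses are means after subtraction of the adult dye profile. Gsta3 lies above 0 in every embryo, and the crosses of Cyp17a1, Cyp2s1, Gstt1 and Gstt4 stand far to the left of their means.

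Above 0 in every embryo were 7 members, Gsta3, Gstm1, Gstm5, Cyp3a13, Sult4a1, Ces3b and Fmo1, where 8.27% of all features were. Gsta3, whose promoter is printed above, read 0.91, 0.34, 0.66, 0.45, 0.78 and 0.55 in embryos 1 to 6, a mean of 0.62 ± 0.21 (SD, n = 6, as for the fetal means below) with limma's adjusted p = 0.0525. Its dye profile was 0.36, which leaves 0.26 after subtraction. Gstm1 read 0.48, 0.29, 0.01, 0.22, 0.52 and 0.36, with a mean of 0.31 ± 0.18, and its dye profile of -0.18 ran the other way. These 2 transferases therefore stayed above 0 with the dye profile taken off. Cyp3a13 read 0.44, 0.10, 0.30, 0.13, 0.34 and 0.16, with a mean of 0.25 ± 0.14, but its dye profile was 0.57 and its subtracted value -0.32. Gstm5, Ces3b and Sult4a1 also turned, with means of 0.23, 0.16 and 0.21 against subtracted values of -0.45, -0.38 and -0.13. Fmo1, at 0.12 ± 0.08, kept its side of 0, at 0.09.

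The members below 0 in every embryo were 2 Cyp2d genes, where 7.5% of features were. Cyp2d26 read -1.68, -0.83, -0.63, -0.13, -0.19 and -0.19, with a mean of -0.61 ± 0.59, and both of its probes lay low, at -0.57 and -0.64. Cyp2d22 read -0.71, -0.56, -0.36, -0.23, -0.53 and -0.37, with a mean of -0.46 ± 0.17, an adjusted p of 0.078 by limma and a subtracted value of -0.69. The spread of Cyp2d22 was small and that of Cyp2d26 large. Cyp2d10 and Cyp2d12 averaged -0.23 and -0.22. Cyp2d9, with values in 5 embryos, averaged -0.32 ± 0.74, set by -1.60 in embryo 5, and 0.00 without that embryo. Cyp2c70 had the highest Cyp2 mean, 0.26 ± 0.42, from 0.27, 0.09, 0.22, 0.76, -0.42 and 0.66. Cyp2b10 read 0.38, -0.12, 0.38, 0.00, 0.14 and 0.72, with a mean of 0.25 ± 0.30. Neither of them kept 1 sign over the embryos. Cyp2a12, lowest in the adults over both dyes, averaged -0.05 ± 0.36.

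Ces1c had the lowest fetal mean of all members, -0.88 ± 0.72, from 0.22, -0.86, -1.21, -1.99, -0.67 and -0.74, with embryo 1 on the other side of 0. Its neighbours in the same gene cluster were near or above the pool, Ces1e at 0.30 ± 0.36 (0.54, 0.85, 0.34, 0.12, -0.15 and 0.09) and Ces1f at 0.07 ± 0.46 (-0.44, 0.54, 0.19, 0.16, -0.55 and 0.50). Ces2a averaged 0.28 and Ces2g 0.00. Cyp17a1 read -0.28, -0.60, -0.96, -0.52, 0.00 and -0.66, with a mean of -0.50 ± 0.33, and -1.27 with its dye profile subtracted, so the fetal value lay below 0 before and after. Cyp27a1 read 0.11, -0.26, 0.01, 0.15, -0.13 and 0.56, with a mean of 0.07 ± 0.29. Among the transferases of other classes, Gstp1 was lowest, at -0.57, -0.31, -0.38, 0.02, -0.44 and 0.13 and a mean of -0.26 ± 0.27. Gsta2, at 0.02, 0.11, -0.03, -0.06, -0.17 and 0.06, averaged -0.01 ± 0.10, the level of the pool. Ugt1a6a read 0.31, -0.10, -0.18, 0.16, -0.32 and 0.08 (mean -0.01 ± 0.23). Ugt2b38 read 0.25, -0.07, 0.46, 0.23, 0.50 and -0.14 (mean 0.21 ± 0.26), with a subtracted value of -0.57. Sult2b1 averaged -0.31 ± 0.71, drawn down by -1.69 in embryo 5 beside 0.05, -0.21, -0.35, 0.18 and 0.18 in the others.

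Several members were read by more than 1 probe, which bears on how far a gene value can be trusted. Gsto1, the omega transferase that reduces dehydroascorbate, had 3 probes that disagreed in the embryos. One read 1.07, 0.66, 0.55, 0.73, 0.73 and 0.50 (mean 0.71 ± 0.20), above 0 in 6 of 6, the next -0.43, -0.34, -0.53, -0.60, -0.60 and -1.60 (mean -0.68 ± 0.46), below 0 in 6 of 6, and the last averaged -0.02 ± 0.19. The gene mean of 0.00 is thus an average of opposed probes. In the adults the same probes averaged -0.01, -0.18 and 0.01. The probes of Cyp2d26 averaged -0.16 and -0.54 in the adults, those of Gsta4 -0.23 and -0.18, and those of Gstz1, the zeta transferase of tyrosine breakdown, -0.22 and -0.19. For Ces3b they were -0.11 and -0.48, for Sult4a1 0.02 and -0.27, and for Gstm5 -0.19 and 0.32, the last probe spreading from -2.36 to 1.87. In the embryos the probes of Gsta4 averaged -0.22 and -0.01, those of Gstz1 -0.07 and -0.06, those of Ces3b 0.29 and 0.03, those of Sult4a1 0.29 and 0.13 and those of Gstm5 0.12 and 0.34. Gsto1 was thus the only gene of the 7 with probes on opposite sides of 0 in every embryo.

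The lists beside the enzymes differed between the ages. Hepatocyte markers lay above 0 in the embryos for 10 of 13 genes (median 0.18, and 0.03 with the dye profile subtracted), with medians between 0.11 and 0.48 in the single embryos. Cofactor and other enzymes had 18 of 41 means below 0 and a median of 0.03. Papss1, which makes the sulfate donor of the sulfotransferases, averaged -0.62 ± 0.36 and was below 0 in 5 of 6 embryos, and Aldh1a7, an aldehyde dehydrogenase, averaged 0.44 ± 0.24 and was above 0 in 6 of 6. Their adjusted p values by limma were 0.0891 and 0.0906. Among 23 regulators, 14 lay below 0 with a median of -0.01. Cebpa, a transcription factor of hepatocyte maturation, averaged -0.67 ± 0.50 and was below 0 in 6 of 6 embryos, and Nr1i2 averaged 0.34 ± 0.19, each without passing. Exocrine pancreas markers had a median of -1.23, with 3 of 4 below 0 and 2 passing, and their part in the enzyme values was not tested.

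The next comparison asked which enzymes differed between adult and fetal mutants in their ratio to the pool, using the adult Cy5 arrays, whose dye layout is that of the fetal arrays. Cyp17a1 was the only member that passed, 1 of 44, where 23 of 16314 features passed (0.141%) and 0.0919% passed as higher in the adults. It read 0.15, 1.36, 1.06, 1.18, 1.21 and 1.22 in the adult Cy5 arrays, a mean of 1.03 ± 0.44, against -0.28, -0.60, -0.96, -0.52, 0.00 and -0.66 in the embryos, a mean of -0.50 ± 0.33 (SD, n = 6 each). Every adult value was above every fetal value, as in 1.14% of features, and the difference was 1.53 with limma's adjusted p = 0.019. With the adult means over both dyes, where a dye effect no longer cancels, the difference was 0.90 (adjusted p = 0.128). The gene has a dye profile of 0.76, and its call also ended when adult animal 2, 4 or 5 or embryo 1, 2, 3, 4 or 6 was left out, with differences of 1.44 to 1.58 and adjusted p of 0.0512 to 0.0651.

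**Figure D5:**
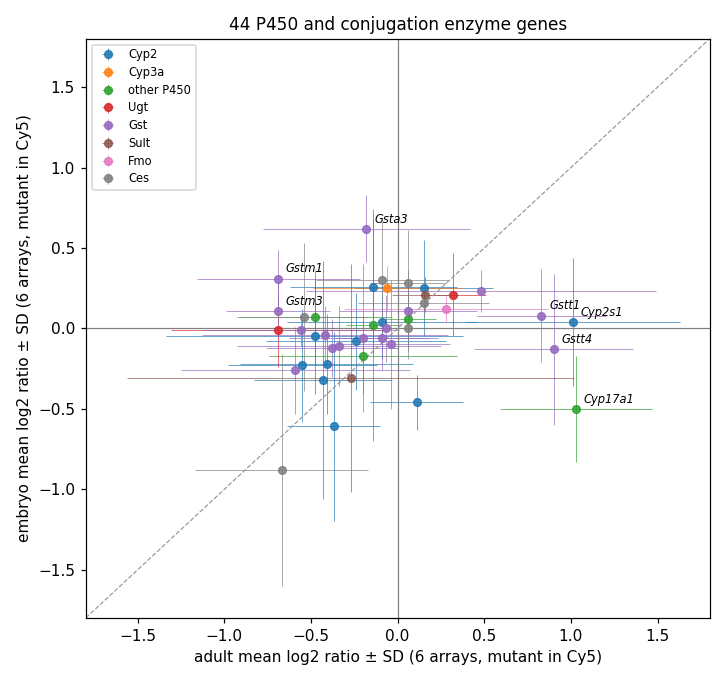
Mean log2 ratio of mutant over pool with SD in 6 adult mutants (horizontal axis, arrays with the mutant in Cy5) and 6 mutant embryos (vertical axis) for 44 genes, coloured by family. The dashed line marks equal values. Cyp17a1 lies at 1.03 and -0.50, and Gstm1 and Gstm3 lie on the adult-low side of the line.

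The other members ran lower in the adults more often than higher. Of 44 differences, 31 lay below 0 (70.5%), against 52.3% of all features, with a median of -0.12 against -0.022. The count of 31 fell to 27 with each array centred on its median and to 27 without adult animal 4. It was 22 with the replicate block, whose label numbers pair no samples. In 2 mu class transferases all adult Cy5 values were below all fetal values, where 1.15% of features were. Gstm1 read -0.11, -0.28, -0.99, -1.40, -0.60 and -0.76 in the adults against 0.48, 0.29, 0.01, 0.22, 0.52 and 0.36 in the embryos, a difference of -1.0 (limma adjusted p = 0.0623). Gstm3 read -0.24, -0.39, -0.94, -0.98, -0.82 and -0.76 in the adults against 0.26, 0.21, -0.16, 0.00, 0.09 and 0.26 in the embryos, a difference of -0.80 (adjusted p = 0.0608). These genes had dye profiles of -0.18 and -0.15, and with both adult dyes their differences were -0.85 and -0.67. Averaged over both dyes, neither gene kept all adults below all embryos, with adult 2 at 0.09 for Gstm1 and 0.00 for Gstm3, whereas Gsta3 did so then and not in the Cy5 arrays. Gsta3 differed by -0.79 (adjusted p = 0.115) and Ugt1a6a by -0.68 (adjusted p = 0.168). Cyp2s1, Gstt4 and Gstt1 stood higher in the adult Cy5 arrays by 0.97, 1.03 and 0.75, but by 0.01, 0.37 and 0.10 with both dyes. Leaving out adult animal 1 moved the number of passing features to 1224 and of members to 8, where the main setting tested 16314 features and 44 members. Those 8 members were Cyp17a1, Cyp2s1, Gstt1 and Gstt4 as higher in the adults and Gstm1, Gstm3, Gsta3 and Ugt1a6a as lower. Hepatocyte markers shifted the same way as Gstm1, Gstm3, Gsta3 and Ugt1a6a, with 12 of 13 differences below 0 and a median of -0.56.

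Between the sexes of the embryos no member passed, and 2 of 17212 features did (0.0116%). Unadjusted p under 0.05 was found for 4 of 44 members (3.18% of features), 3 of them Cyp2d genes. Cyp2d26 read -0.13, -0.19 and -0.19 in the females against -1.68, -0.83 and -0.63 in the males, a difference of 0.87 with limma's adjusted p = 0.998. Cyp2d10 read 0.11, -0.10 and 0.12 in the females against -0.81, -0.39 and -0.29 in the males, a difference of 0.54. For Cyp2d12 the values were -0.05, 0.18 and -0.06 in the females against -0.66, -0.50 and -0.23 in the males, a difference of 0.49. In these 3 genes the lower values were those of the males. Cyp2d22 did not follow them as far, at -0.38 ± 0.15 in females and -0.55 ± 0.18 in males, and Cyp2d9 gave no clear order, at 0.30 and -1.60 in 2 females against -0.31, 0.04 and -0.05 in the males. Ces1e was lower in the females, at 0.12, -0.15 and 0.09 against 0.54, 0.85 and 0.34 in the males, a difference of -0.56. The sexes did not overlap in 5 members (Ces1e, Cyp2d10, Cyp2d12, Cyp2d26 and Gstm5), or in 9.59% of all features. Sex and the label of the pool coincide in 5 of 6 embryos and cannot be told apart there, and cross-hybridisation among the Cyp2d probes was not tested.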

How the data were processed

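Liver RNA was measured on 2-colour cDNA arrays, 11 adult and 6 fetal. The values are log2 ratios, already processed when the authors deposited them. The log base was inferred from their range, and for image analysis, background correction and normalization the method is not given in the sources used here. Per the labels' protocols, mutant and pool cDNA were labelled indirectly with Cy3 and Cy5.

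Of 20794 probes, 12771 had 1 gene symbol in the platform annotation, while 8023 were unnamed and 0 had several. Every Entrez ID had an entry in the RefSeq gene table (GRCm38.p6), with 0 symbols updated. Probes of 1 gene were averaged, and unnamed probes were kept single. Arrays of an animal were averaged. Fetal values were read 11 rows below the probe's row up to probe 20000, since the fetal mean then correlated with the adult dye profile at 0.377 (Spearman), against 0.0191 as deposited, and same-gene probes correlated best at this offset (0.0867, next best 0.0682). The last fetal rows stayed unnamed. Cy3 arrays were left as deposited, because opposite-dye arrays correlated negatively in different animals (median -0.263) as in the same animal (-0.286), and values beyond 10 in size were all negative on Cy3 arrays (140) and all positive on Cy5 arrays (445).

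The 2-sided tests came from lmFit and eBayes of limma 3.58.1 under R 4.3.3, after a check on simulated data, with Benjamini-Hochberg adjusted p under 0.05 over all features with values in 4 of 6 animals per group (for the sexes, 2 of each and 4 in all). The replicate numbers of the labels count arrays in the adults and so pair no adult with an embryo. Whether replicates are independent litters is not stated. The number of arrays limits the precision. Alternatives were dye orientation, sign of the Cy3 arrays, row naming, centring, extreme values, filters, probe summary, a robust prior, a replicate block and leaving out each animal. Moving all fetal rows by 11 was added after seeing the data.

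The members and gene lists were chosen with earlier results of these data known. Named with the value of every animal were members that passed, per family up to 3 with 1 sign in every animal and the highest and lowest mean, well-known genes such as Cyp2b10, Cyp3a11, Gstp1, Gsta2 and the Ces1 genes, and members with several probes, whose probes are compared by their means. Fmo1, Cyp2f2, Gstt1, the members with an extreme animal and genes of the other lists were named after their values were seen. Markers of granulocytes, lymphocytes, kidney and intestine had adult medians between -0.01 and 0.01 and fetal medians between -0.23 and 0.02.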

Additional observations from a re-analysis of the deposited data

Results flagged for a closer look

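In 6 of 90 sets of values, 1 animal or embryo lay far from the others by Dixon's criterion. The sets were those of all members with 5 or 6 values, in the adults and in the embryos, and chance gives about 1 in 20 such sets. Gstz1 stood at -0.95 in embryo 1, with the other embryos between -0.12 and 0.31, and both of its probes were low there, at -1.14 and -0.76. Sult2b1 stood at -1.69 in embryo 5, with the others between -0.35 and 0.18. Gstm2 stood at -0.89 in embryo 3, with the others between -0.06 and 0.20, and Cyp2s1 at -0.74 in embryo 6, with the others between 0.07 and 0.40. In the adults, Gstt1 stood at 1.31 in animal 5, which has no Cy3 array, with the others between -0.26 and 0.11. Cyp11a1 stood at 0.56 in animal 6, with the others between -0.47 and -0.11.

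Between the ages, the ratio of Cyp17a1 differed by 1.53 in the adult Cy5 arrays minus the embryos by limma's test (adjusted p = 0.019, adult above fetal in 6 of 6 against 6 of 6 values), and by 0.90 when both adult dyes were averaged. Gstm1 was below 0 in every adult Cy5 array and above 0 in every embryo, a difference of -1.0 that missed the threshold (limma adjusted p = 0.0623) and was -0.85 with both adult dyes, where adult 2 stood at 0.09. The cause of these differences was not tested.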

How the results depend on the processing

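No member passed in the adults (0) in any setting that kept both dyes as deposited. With the Cy3 arrays turned in sign 1760 features and 10 members passed, with Cy5 arrays only 1106 and 6, and with Cy3 arrays only 699 and 6. In every setting run 27 to 38 of the 46 adult means lay below 0, with 27 when the Cy3 arrays were turned. Of all features 48.1% lay below 0 in the main setting, and this share is not given for the others. In the embryos, where 26 features passed, 4972 features and 13 members passed with the adult dye profile subtracted, 43 features with all rows moved by 11, 83 features and 1 member with values beyond 10 left out, 61 and 1 with values in every animal, 43 features with the median over probes, 84 and 2 with each probe on its own, and 81 and 1 with a robust prior. The 1 member was Gsta3 each time, and the 2 were Gsta3 and Gsto1. With rows named as deposited 2 members passed (Cyp2d26 at -3.93 and Cyp2s1 at -8.82). Leaving out 1 embryo left 2 to 5 features and 0 members. Between the ages, where 23 features passed, adult means over both dyes left 9 features and 0 members, rows named as deposited gave 1579 and 7, and 42, 36 and 40 features passed with values beyond 10 left out, values in every animal and a robust prior. Leaving out 1 animal gave 4 to 1224 features and 0 to 8 members. The replicate block, with label numbers that pair no samples, left 10 features and 0 members, with Cyp17a1 at 1.27. Between the sexes 0 features passed with values beyond 10 left out, 9 with values in at least 2 animals, 0 with values in every animal, 1 with a robust prior and 0 to 4 without 1 embryo. The main setting tested 17039 features and 46 members in the adults, 17242 and 44 in the embryos and 16314 and 44 between the ages. The share of all features that passed is not given for each setting, so the member counts are not read as particular to the enzymes. The cause of these changes was not tested.

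Signs turned in some settings, and the genes given here are a part of those that turned. With the adult Cy3 arrays turned, Ces1e stood at 0.12, Ces3b at 0.55, Cyp2a12 at 0.60 and Cyp3a13 at 0.50. Sult1a1 then stood at 0.70, Sult4a1 at 0.33 and Ugt2b38 at 0.70. Cyp2f2, Gsta3, Cyp2d22, Ces2a, Fmo1, Cyp26b1 and Gsto2 changed sign there too. With Cy5 arrays only, Ces2a stood at 0.06, Ces3b at 0.15, Cyp2d22 at 0.11, Sult1a1 at 0.57, Sult4a1 at 0.16 and Ugt2b38 at 0.32. With Cy3 arrays only, Ces2g stood at -0.08, Cyp17a1 at -0.53, Cyp2s1 at -1.37, Gstm5 at -0.73, Gstt1 at -0.84 and Gstt4 at -0.73. In the 5 animals with both dyes Ces2g was -0.01 and Gstm5 -0.08, and with each probe on its own Gstm5 was -0.19. Leaving out 1 adult turned Ces2g (-0.04 to 0.06), Gstm5 (-0.08 to 0.35), Sult2b1 (-0.51 to 0.08) and Sult1a1 (-0.16 to 0.06). With fetal rows named as deposited, Ces1c stood at 0.03, Cyp17a1 at 0.13, Cyp2d22 at 0.56, Fmo1 at -0.24, Gsta3 at -0.14, Gstm1 at -0.19, Gsto1 at -0.26 and Gstp1 at 0.01. With the dye profile subtracted, Ces3b stood at -0.38, Cyp2f2 at -0.39, Cyp2s1 at -1.11, Cyp3a13 at -0.32, Gsta2 at 0.15 and Gsta4 at 0.05. In the same setting Gstm5 stood at -0.45, Gstt1 at -0.71, Sult4a1 at -0.13, Ugt1a6a at 0.07 and Ugt2b38 at -0.57. Gsto1 was 0.00 with centred arrays and -0.02 with the median over probes. Leaving out 1 embryo turned Gsto1 (-0.06 to 0.07), Gstz1 (-0.14 to 0.11), Ces1f (-0.03 to 0.19), Ugt1a6a (-0.07 to 0.06), Gsta2 (-0.04 to 0.02) and Cyp27a1 (-0.03 to 0.14).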
